A study of Rattus norvegicus with 8 samples.

Results

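The triad is the contact in skeletal muscle between a transverse tubule, an inward fold of the surface membrane, and the sarcoplasmic reticulum that stores calcium. The 10 genes described here encode proteins of that contact: the L-type calcium channel of the tubule (Cacna1s, Cacnb1, Cacng1 and Cacna2d1), the calcium release channels of the reticulum (Ryr1 and Ryr3), the junctional proteins triadin (Trdn) and JP-45 (Jsrp1), and the junctophilins Jph1 and Jph2. They were chosen by gene symbol, and every probe set carrying one of these symbols in the platform annotation was taken. That gave 14 probe sets of 31042, with 8 genes on 1 probe set each, Cacnb1 on 2 and Trdn on 4. All 14 symbols are current in the reference gene table. Of the 14, 13 probe sets passed a filter on dim signal and were tested, and each of the 10 genes kept at least 1.

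In skeletal muscle an action potential that enters the tubule moves the voltage sensor Cacna1s, which opens Ryr1 by direct contact, and calcium flows into the cytoplasm to start contraction. Junctophilins hold the membranes together, and triadin and JP-45 anchor the release machinery at the junction. Extraocular muscles, which move the eye, are among the fastest mammalian muscles, and thyroid hormone is known in limb muscle to favour fast contraction and fast calcium cycling.

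Total RNA of extraocular muscles was hybridised to arrays for 8 adult Sprague-Dawley rats with an initial body weight of 200 ± 40 g. The 4 hyperthyroid rats were given T3 (triiodothyronine, the thyroid hormone that binds nuclear receptors) into the abdominal cavity every second day for 6 weeks, at 25 µg for each 100 g of body weight, and tissue was taken 24 hours after the last dose. The 4 control rats were untreated, no sham injection is mentioned, and neither sex nor the individual eye muscles are given in the sources used here. The numbers in the titles name the arrays, which are hyperthyroid 1, 2, 3 and 5 and control 7, 8, 9 and 11. Values are signals on the linear scale of the scanner software, and in whole muscle fewer cells of a type and less RNA per cell cannot be told apart. A probe set's signal depends on its probes, so levels are compared between arrays and not between genes.

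The array labelled hyperthyroid 5 goes against its tissue label. The extraocular myosin gene Myh13 read 4.17 there and 5430.4 to 9340 on the other 7 arrays, and the homeobox gene Hoxa10 had 399 on it and at most 27.8 elsewhere. The summed signal of 9 slow fibre genes was 74197 on it, against 18526 to 38607 on the other hyperthyroid arrays and 20620.2 to 29272 on controls. That of 8 fast fibre genes (163556) lay within the range of the others, 126171 to 168516. The summed signal of 6 glial and myelin markers was 724 on hyperthyroid 5 and 1455 on hyperthyroid 2, against at least 7983 on the other 6 arrays. For Gapdh, the signal at the 3 prime end over that at the 5 prime end, a ratio that grows as RNA gets shorter, read 3.91, 4.40, 2.18 and 1.44 on the hyperthyroid arrays in that order, against 1.67 to 1.97 for the controls. Myh7, the slow myosin heavy chain, read 13031 on hyperthyroid 5 and at most 4097 elsewhere, and Myh4, a fast one, read 24307, within the 16681 to 25104 of the others. Hyperthyroid 5 also had the highest summed signal of adipocyte genes (12040.4, against 941 to 4165 on the other 7 arrays), of leukocyte genes (4187, against 1204 to 2286) and of fibroblast genes (41805, against 12759 to 36612). Such a sum is set by its brightest genes. The fibroblast gene Lum went the other way, with 931 on hyperthyroid 5 and 1406 to 4420 on the other 7 arrays. Group differences are therefore given with and without hyperthyroid 5, and the part of these cells in them was not tested.

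None of the 13 tested triad probe sets passed the test between hyperthyroid and control arrays. With limma over all probe sets and Benjamini-Hochberg adjustment, 0 of 13 had an adjusted p under 0.05, beside 0 of 18625 probe sets in all (0%). The smallest adjusted p among the 13 was 0.275, on a probe set of Trdn. At an unadjusted p under 0.05, 3 were higher in hyperthyroid arrays (Trdn 1370738_a_at, Cacnb1 and Jsrp1) and 0 were lower, where 6.25% and 5.3% of all probe sets were (11.5% in either direction). The median log2 difference of the 13 was 0.01, with 7 positive and 6 negative (52.5% of all probe sets were positive), and that of all probe sets was 0.03. Without hyperthyroid 5, 0 of 13 passed, beside 29 of 18625 probe sets (0.156%). In that fit 3 were higher and 2 lower at an unadjusted p under 0.05, where 7.59% and 7.66% of all probe sets were (15.2% together). The higher ones were Trdn 1370738_a_at, Trdn 1370739_x_at and Cacnb1, and the lower ones Trdn 1370198_at and Cacng1. The median of the 13 was then 0.23 with 8 positive and 5 negative, beside 0.04 and 54.2% positive over all. Of these 13, 4 are probe sets of Trdn. With each of the 10 genes on its brightest probe set, the median was 0.03 without hyperthyroid 5, beside 0.02 over all genes. There 5 genes were positive, 1 was higher and 2 lower at an unadjusted p under 0.05. Over 8 arrays the median by gene was -0.02, beside 0.01 over all genes, with 5 positive, 2 higher and 0 lower.

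**Figure D1:**
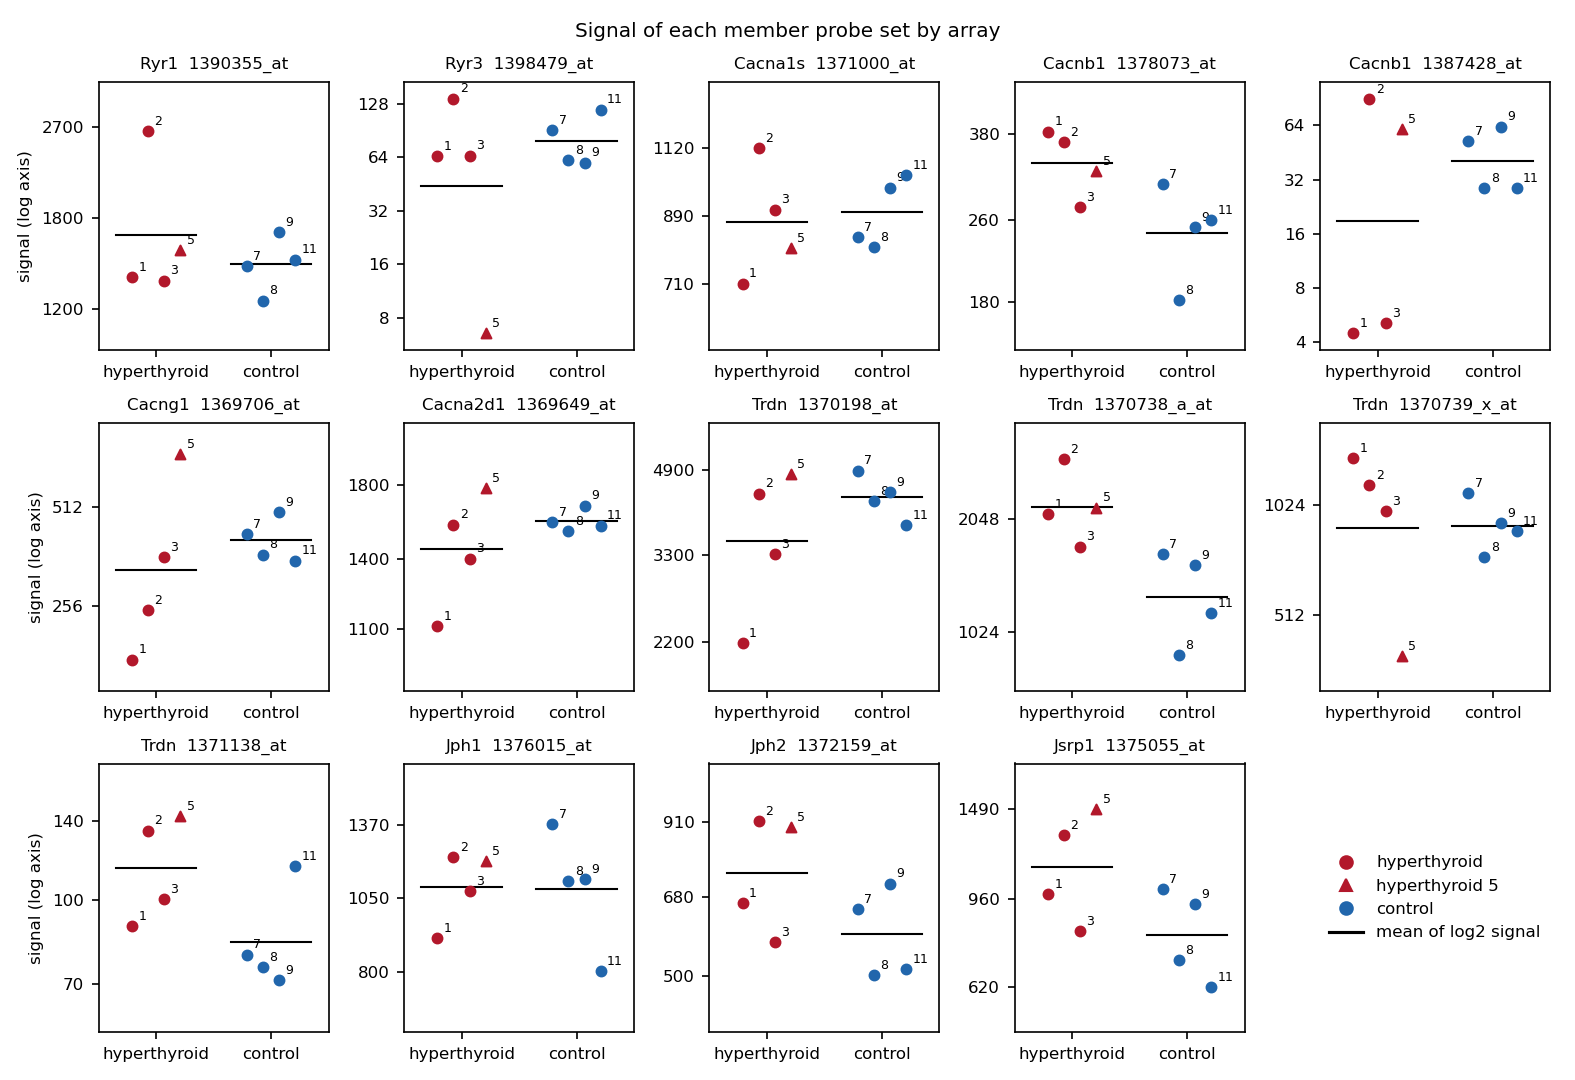
Signal of the 14 triad probe sets on each array, hyperthyroid left and control right, on log axes that differ between panels; points carry the array number, triangles are hyperthyroid 5, and bars are means of the log2 signal. Only Trdn 1370738_a_at has no overlap between the groups, with 1728 to 2941 in hyperthyroid and 894 to 1652 in control arrays.

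Within the voltage-gated channel of the tubule, the pore and voltage sensor Cacna1s had close group means. Its signal was 711, 1117, 909.95 and 801 on hyperthyroid 1, 2, 3 and 5, against 829.5, 803, 979.7 and 1022 on control 7, 8, 9 and 11. The hyperthyroid arrays held both the lowest and the highest value, and all control values lay between them. The means were 885 ± 175 for the hyperthyroid and 908 ± 108 for the control rats (SD, n = 4 each). The log2 difference was -0.05 ± 0.16 (SE; limma adjusted p = 0.920), with a 95% interval of -0.41 to 0.31. Without hyperthyroid 5 it was -0.0099 ± 0.17 (limma adjusted p = 0.983).

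Cacnb1, the beta subunit that the skeletal channel needs to reach the tubule membrane, had 385, 368, 275 and 323 on the hyperthyroid arrays, against 304, 181, 251 and 259 on controls. All 4 hyperthyroid values exceeded the control mean, and the lowest of them lay under control 7, so the groups overlapped. The log2 difference was 0.45 ± 0.19 (SE), a 1.37-fold ratio, with an unadjusted p of 0.0395 and an adjusted p of 0.415 in limma. Without hyperthyroid 5 it was 0.47 ± 0.21 (adjusted p = 0.310). The other Cacnb1 probe set, 1387428_at, had a mean log2 signal under the filter, which lies at a signal of about 28.2, and was not tested. It read 4.52, 89.7, 5.13 and 61.1 on the hyperthyroid arrays and 52.4, 28.7, 63.1 and 28.8 on controls. The 2 Cacnb1 probe sets therefore do not give 1 direction, and the dim one was lowest on hyperthyroid 1 and 3.

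Cacng1, the gamma subunit of the skeletal channel, was the member that hyperthyroid 5 moved most among the tested probe sets of the channel subunits. Its signal was 175, 248, 361 and 744 on hyperthyroid 1, 2, 3 and 5, against 425, 367, 495 and 352 on controls. Hyperthyroid 1 and 2 lay below every control, hyperthyroid 3 within the control range and hyperthyroid 5 above it. Over 8 arrays the log2 difference was -0.30 ± 0.36 (SE; limma adjusted p = 0.756). Without hyperthyroid 5 it was -0.70 ± 0.23, with an unadjusted p of 0.0109 and an adjusted p of 0.195, and without hyperthyroid 1 it was -0.0019 (limma adjusted p = 0.998). The arrays with the lowest Cacng1 signal, hyperthyroid 1 and 2, had the highest Gapdh ratios. The order did not hold throughout: the ratio was higher on hyperthyroid 2 (4.40) than on hyperthyroid 1 (3.91), and so was Cacng1. Control 7 had the highest ratio of the controls (1.97) and a Cacng1 signal of 425. With that ratio as a covariate the Cacng1 difference over 8 arrays was 0.35 (limma adjusted p = 0.578). Whether RNA length set the Cacng1 values was not tested.

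Cacna2d1, the alpha2-delta subunit that lies on the outer face of the membrane, had the narrowest spread in control muscle among the members, in proportion to its mean. It read 1113, 1572, 1400.2 and 1782 on the hyperthyroid arrays, against 1587, 1537, 1677 and 1567 on controls. Hyperthyroid 1 and 3 lay below every control, hyperthyroid 2 within them and hyperthyroid 5 above. The log2 difference was -0.14 ± 0.15 (SE; adjusted p = 0.732), and -0.24 ± 0.13 without hyperthyroid 5 (adjusted p = 0.415, limma). Without hyperthyroid 1 it was -0.013 (limma adjusted p = 0.979). With the Gapdh ratio as a covariate it was -0.01 (adjusted p = 0.990 in limma).

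**Figure D2:**
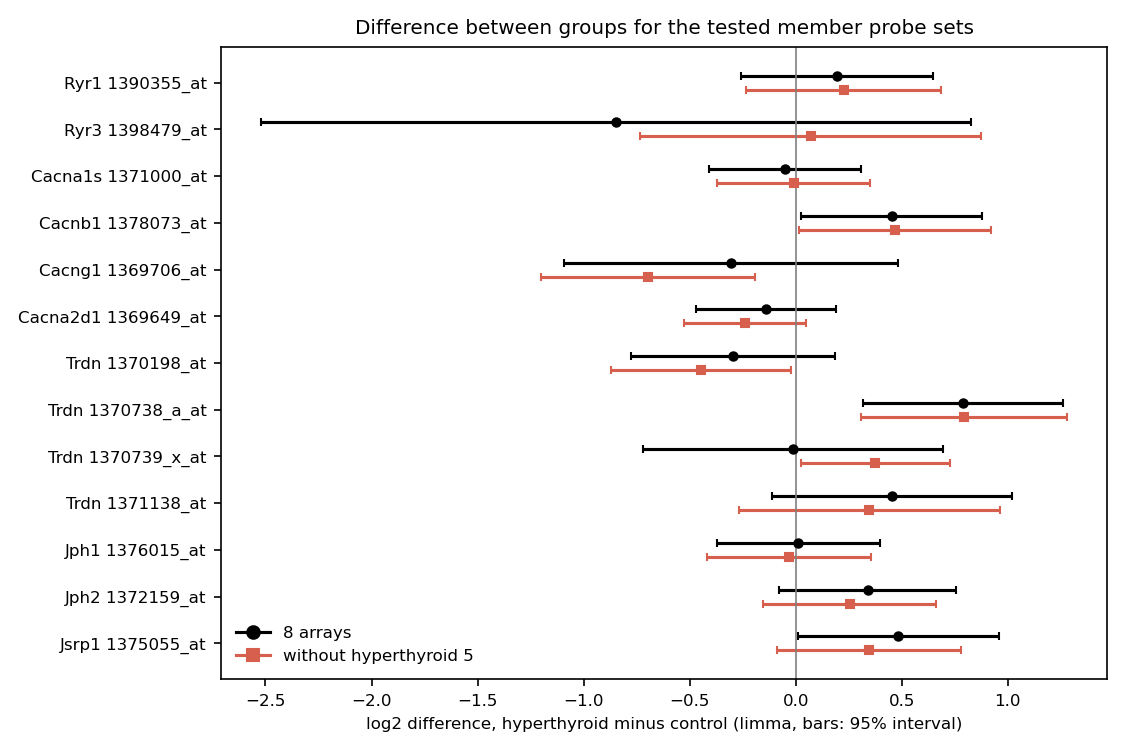
Log2 difference, hyperthyroid minus control, of the 13 tested probe sets with 95% intervals from limma, for all 8 arrays (black circles) and without hyperthyroid 5 (red squares). The widest interval is that of Ryr3 over 8 arrays, -2.52 to 0.82, which runs from -0.73 to 0.87 without hyperthyroid 5.

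Ryr1, the release channel that the voltage sensor opens, had 1383, 2650.4, 1359.7 and 1559.9 on hyperthyroid 1, 2, 3 and 5, against 1453, 1244, 1689 and 1494 on controls. Hyperthyroid 2 stood above all other arrays, and the other 3 hyperthyroid values lay inside the control range. The log2 difference was 0.19 ± 0.21 (SE; adjusted p = 0.729), and leaving out hyperthyroid 2 gave -0.03 (limma adjusted p = 0.951). That 1 array therefore set the sign of the Ryr1 difference.

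Ryr3, a second release channel found in brain and, at lower amounts, in some skeletal muscles, had 65.1, 136.7, 65.3 and 6.56 on the hyperthyroid arrays, against 91.2, 61.8, 59.7 and 118.6 on controls. On 7 arrays it lay between 59.7 and 136.7, and on hyperthyroid 5 it was under the filter level of 28.2. The log2 difference was -0.85 ± 0.76 (SE; adjusted p = 0.682) over 8 arrays and 0.07 ± 0.37 without hyperthyroid 5 (limma adjusted p = 0.949). Taking the Gapdh ratio into the fit of 8 arrays gave Ryr3 -2.18 (limma adjusted p = 0.134), and other settings gave -0.42 with array weights and -0.34 with 32 added before log2 (limma adjusted p = 0.761 and 0.740). Markers of neurons and glia were also low on hyperthyroid 5: the summed signal of 8 neuron genes was 237 on it, against 537 to 1539 on the other 7 arrays. Hyperthyroid 2, with the second lowest glial sum, had the highest Ryr3 signal. The part of these cells in the Ryr3 values was not tested.

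The difference between the Ryr3 and Ryr1 log2 signals within an array removes any scale factor of that array. It was -4.41, -4.28, -4.38 and -7.89 on hyperthyroid 1, 2, 3 and 5, against -3.99, -4.33, -4.82 and -3.66 on controls. The difference of means was -1.04, and an exact two-sided permutation test of 4 against 4 arrays gave p = 0.343, where the smallest possible is 0.0286. Without hyperthyroid 5 the difference of means was -0.15 (exact permutation p = 0.686, with 0.0571 the smallest possible). Hyperthyroid 1, 2 and 3 had nearly the same value, and the 4 controls spread on both sides of it.

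Triadin, which binds Ryr1 and calsequestrin at the junctional membrane, gave the largest positive difference among the tested probe sets, and its probe sets did not run the same way. On 1370738_a_at the signal was 2105, 2941, 1728 and 2188 on hyperthyroid 1, 2, 3 and 5, against 1652, 894, 1546 and 1149.7 on control 7, 8, 9 and 11. The groups did not overlap, as was the case for 1 of 13 triad probe sets in the higher direction and 0 in the lower, where 4.33% and 3.23% of all probe sets showed it. The means were 2240.4 ± 508 for the hyperthyroid and 1310.5 ± 352 for the control rats (SD, n = 4 each), and the log2 difference was 0.79 ± 0.22 (SE), a 1.73-fold ratio. Its unadjusted p was 0.00353 and its adjusted p 0.275 in limma, so it did not pass over all probe sets. Without hyperthyroid 5 the difference was 0.79 ± 0.22 (limma adjusted p = 0.150), and 1 of 13 probe sets was again without overlap in the higher direction and 0 in the lower, beside 8.28% and 6.51% of all.

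The brightest Trdn probe set, 1370198_at, read 2184, 4379.7, 3308 and 4803 on the hyperthyroid arrays, against 4878, 4237, 4411 and 3785 on controls. Hyperthyroid 1 and 3 lay below every control, and hyperthyroid 2 and 5 lay among them. Its log2 difference was -0.30 ± 0.22 (SE; adjusted p = 0.614), and -0.45 ± 0.19 without hyperthyroid 5 (unadjusted p = 0.0402, adjusted p = 0.302 in limma). Without hyperthyroid 1 it was -0.067 (limma adjusted p = 0.891). With the Gapdh ratio as a covariate it was -0.13 over 8 arrays, against 0.62 for 1370738_a_at, and neither passed. The probe set 1370739_x_at, whose suffix marks probes that may bind other transcripts, read 1379, 1161, 988 and 396 on the hyperthyroid arrays, against 1103, 740.3, 915 and 870.5 on controls. Hyperthyroid 5 was the lowest of all, and the difference was -0.01 ± 0.32 with it (adjusted p = 0.991) and 0.38 ± 0.16 without it (limma adjusted p = 0.295). The dimmest, 1371138_at, read 89.8, 134.6, 100.5 and 143 on the hyperthyroid arrays, against 79.5, 75.3, 71.3 and 115.7 on controls, a difference of 0.45 ± 0.26 (limma adjusted p = 0.514), and 0.35 ± 0.28 without hyperthyroid 5. All 4 hyperthyroid values of that probe set exceeded the control mean, and control 11 lay among them.

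Within each array the log2 signal of 1370738_a_at minus that of 1370198_at was -0.05, -0.57, -0.94 and -1.13 on hyperthyroid 1, 2, 3 and 5, against -1.56, -2.24, -1.51 and -1.72 on controls. The groups did not overlap, with means of -0.67 ± 0.47 and -1.76 ± 0.34 (SD, n = 4 each), a difference of 1.08. This contrast was chosen after its values were seen, from 6 pairs of Trdn probe sets, and is given as a description. The Gapdh ratio was highest on hyperthyroid 1 and 2, the arrays with the highest values of this contrast. It was lowest of the 8 arrays on hyperthyroid 5 (1.44), whose value of -1.13 lay above every control. The ratio was fitted to each probe set, as given above, and not to the contrast, so its part in the contrast was not tested. Of 4542 pairs of tested probe sets of 1 gene, 8.17% were without overlap between the groups in this measure. Leaving out 1 array at a time gave differences of 0.88 to 1.24. These runs reuse the arrays on which the contrast was chosen, so they do not test it. The platform annotation gives 1370738_a_at and 1370739_x_at the same transcript record and each of the other Trdn probe sets a record of its own. Which exons each probe set reads was not analysed here.

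**Figure D3:**
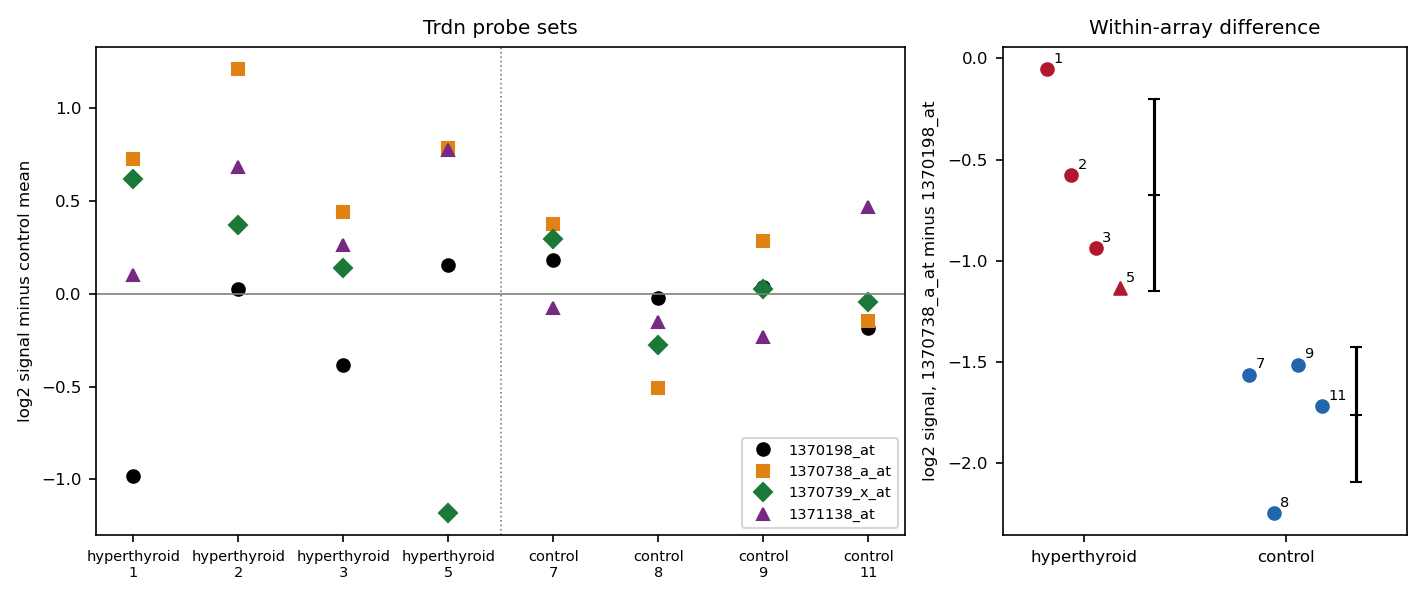
Left, log2 signal minus the control mean for the 4 Trdn probe sets on each array, hyperthyroid left of control; right, the within-array log2 difference of 1370738_a_at and 1370198_at, with mean and SD beside the points and a triangle for hyperthyroid 5. The 4 hyperthyroid differences lie between -1.13 and -0.05 and the 4 control differences between -2.24 and -1.51.

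Jsrp1, whose protein JP-45 binds the voltage sensor and calsequestrin, had 982, 1313, 819 and 1492 on the hyperthyroid arrays, against 1005, 709, 935 and 621 on controls. All 4 hyperthyroid values exceeded the control mean, and hyperthyroid 1 and 3 lay within the control range. The log2 difference was 0.48 ± 0.22 (SE), a 1.397-fold ratio, with an unadjusted p of 0.0466 and an adjusted p of 0.424 in limma. Without hyperthyroid 5 it was 0.34 ± 0.20 (unadjusted p = 0.110, adjusted p = 0.437 in limma).

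Of the junctophilins, which bridge the tubule and the reticulum, Jph1 had 905, 1219, 1077 and 1201 on the hyperthyroid arrays, against 1372, 1115, 1124 and 801 on controls. All hyperthyroid values lay inside the control range, and the difference was 0.01 ± 0.17 (SE; limma adjusted p = 0.984), with a 95% interval of -0.37 to 0.40. Without hyperthyroid 5 it was -0.033 ± 0.18 (limma adjusted p = 0.950). Jph2, the form that also serves the heart, had 665, 913, 571 and 892 on the hyperthyroid arrays, against 649.9, 503, 716 and 514 on controls. Hyperthyroid 2 and 5 lay above every control, and hyperthyroid 1 and 3 lay among them. The Jph2 difference was 0.34 ± 0.19 (SE; adjusted p = 0.508), and 0.25 ± 0.19 without hyperthyroid 5 (limma adjusted p = 0.551).

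**Figure D4:**
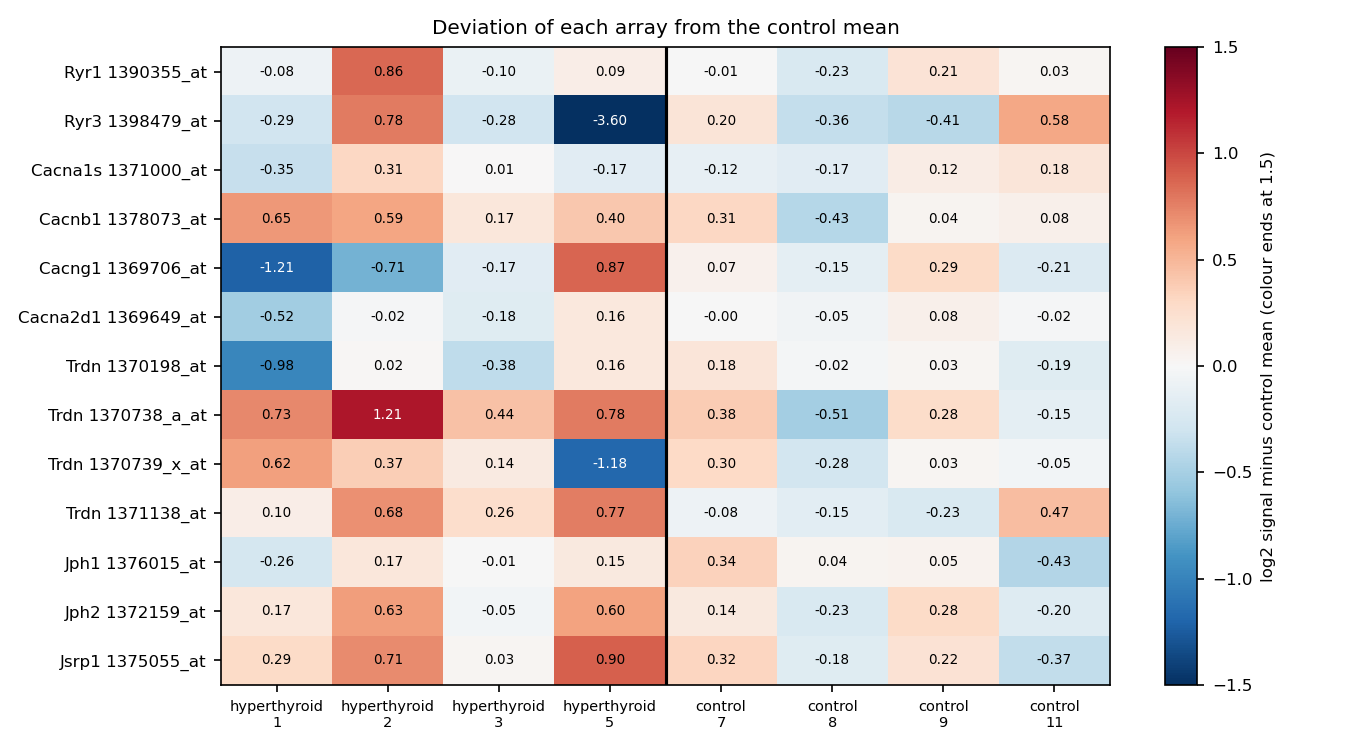
Log2 signal minus the control mean for the 13 tested probe sets (rows) on the 4 hyperthyroid and 4 control arrays (columns), printed in each cell, with colour ending at 1.5. The furthest value is -3.60 for Ryr3 on hyperthyroid 5, and hyperthyroid 2 reads 1.21 on Trdn 1370738_a_at.

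Of the 13 probe sets 11 (84.6%) had their highest value on a hyperthyroid array, as had 61.0% of all probe sets, and 6 (46.2%) their lowest, as had 54.3% of all. Hyperthyroid 2 was the highest of the 8 arrays for 5 of 13 (38.5%, beside 18.7% of all probe sets) and the lowest for 0. Hyperthyroid 5 was the highest for 4 (30.8%, beside 17.1%) and the lowest for 2 (15.4%, beside 17.8%). Hyperthyroid 1 was the lowest for 4 (30.8%, beside 12.3%), namely Cacna1s, Cacng1, Cacna2d1 and Trdn 1370198_at, and the highest for 2. Hyperthyroid 3 was neither highest nor lowest for any of them. The median deviation of the 13 from the control mean was -0.08, 0.59, -0.01 and 0.16 (log2) on hyperthyroid 1, 2, 3 and 5, beside 0.08, 0.07, 0.07 and 0.04 for all probe sets.

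Correlations of the log2 signals over the 8 arrays were computed for the 78 pairs of tested probe sets, and no pair passed. The smallest Benjamini-Hochberg adjusted p was 0.0900 for r and 0.1999 for rho. The median r was 0.22, with 51 positive pairs, and the pairs with the highest r and the lowest r are given here as a description. No share over pairs of other probe sets is given, so these counts are not read as particular to the triad. Jph2 and Jsrp1 had a Pearson r of 0.96 (exact permutation p = 0.00119) and a Spearman rho of 0.86 (exact permutation p = 0.0107). Their r was 0.95 without hyperthyroid 5, 0.90 without the 2 arrays farthest from the median of Jph2, and 0.94 for deviations from the group means. Cacna2d1 and Trdn 1370198_at had an r of 0.95 (exact permutation p = 0.00441) and a rho of 0.90 (exact permutation p = 0.00456), with 0.78 left without the 2 farthest arrays. Cacnb1 and Trdn 1370738_a_at had an r of 0.91 (exact permutation p = 0.00278) and a rho of 0.88 (exact permutation p = 0.00724), and 0.90 without the 2 farthest. Cacng1 and Trdn 1370739_x_at had the lowest r, -0.83 (exact permutation p = 0.0116, adjusted p = 0.129), with a rho of -0.69 (exact permutation p = 0.0694), and -0.34 was left of the r without the 2 farthest arrays. For deviations from the group means, the r of Cacnb1 and Trdn 1370738_a_at was 0.81. That of Cacna2d1 and Trdn 1370198_at was then 0.95, and that of Cacng1 and Trdn 1370739_x_at -0.87. Groups of 4 are too small for an r within each.

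**Figure D5:**
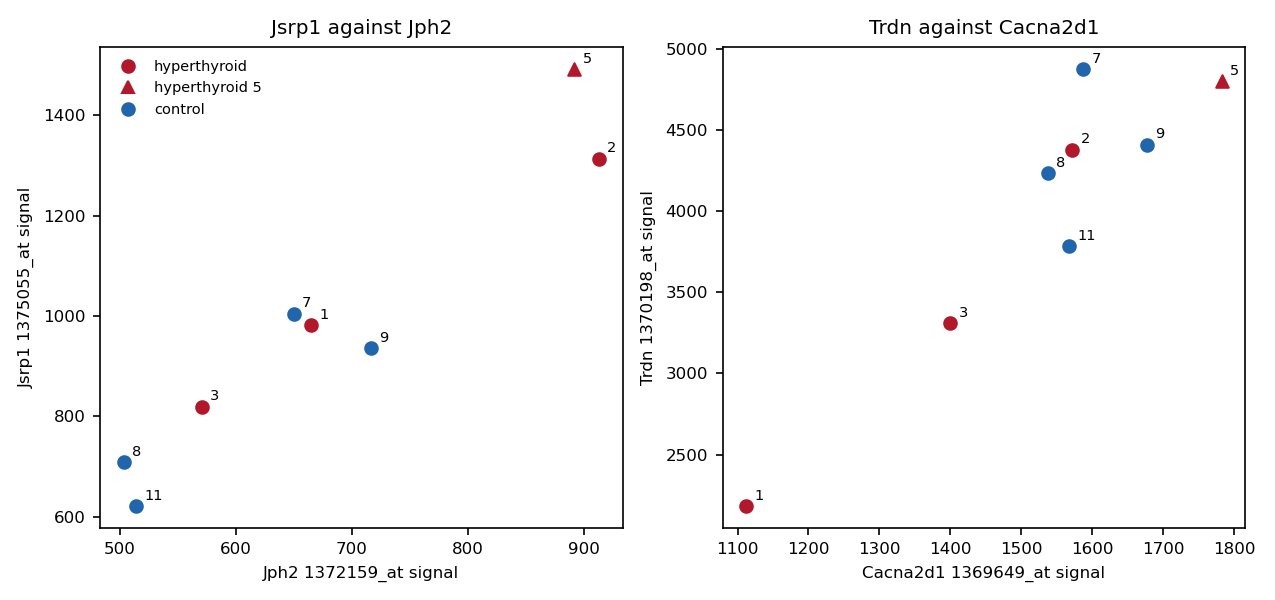
Signal of Jsrp1 against Jph2 (left) and of Trdn 1370198_at against Cacna2d1 (right) on the 8 arrays, numbered as in the titles, hyperthyroid in red (triangle for hyperthyroid 5) and control in blue. In the left panel Jsrp1 spans 1492 on hyperthyroid 5 to 621 on control 11, and hyperthyroid 1 lies apart at the low end of the right panel, at 1113 and 2184.

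Promoters are shown for Jsrp1 and Jph2, the pair with the highest r although it did not pass, for Trdn, whose probe sets differed, and for Cacna1s, the voltage sensor. RefSeq sequences of the rat assembly GRCr8, with 250 bases before and 50 after the start, were found for 7 of the 10 genes in 10 windows. The 4 windows are Jsrp1 at chr7:9552056-9552355, plus strand, Jph2 at chr3:172477872-172478171, minus strand, Trdn at chr1:26229550-26229849, minus strand, and Cacna1s at chr13:50045418-50045717, plus strand. Capitals mark E-boxes (CANNTG, bound by myogenic factors), the muscle CAT motif (CATTCC) and the TATA motif (TATAAA), on either strand.
Jsrp1: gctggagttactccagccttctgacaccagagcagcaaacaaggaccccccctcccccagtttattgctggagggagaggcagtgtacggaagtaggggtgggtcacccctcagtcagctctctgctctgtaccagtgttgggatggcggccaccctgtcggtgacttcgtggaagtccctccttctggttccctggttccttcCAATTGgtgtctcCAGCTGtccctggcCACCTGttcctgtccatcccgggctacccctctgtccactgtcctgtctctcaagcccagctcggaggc
Jph2: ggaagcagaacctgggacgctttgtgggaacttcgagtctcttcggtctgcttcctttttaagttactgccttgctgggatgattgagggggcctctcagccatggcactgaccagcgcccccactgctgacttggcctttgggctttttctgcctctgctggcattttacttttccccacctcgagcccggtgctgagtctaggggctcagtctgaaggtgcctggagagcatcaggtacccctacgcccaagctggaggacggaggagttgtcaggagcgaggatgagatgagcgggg
Trdn: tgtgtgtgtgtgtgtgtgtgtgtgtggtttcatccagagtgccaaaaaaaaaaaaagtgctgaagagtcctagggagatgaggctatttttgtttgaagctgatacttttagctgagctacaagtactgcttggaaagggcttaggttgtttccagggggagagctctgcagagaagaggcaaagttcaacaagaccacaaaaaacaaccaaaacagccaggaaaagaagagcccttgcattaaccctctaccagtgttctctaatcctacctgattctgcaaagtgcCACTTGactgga
Cacna1s: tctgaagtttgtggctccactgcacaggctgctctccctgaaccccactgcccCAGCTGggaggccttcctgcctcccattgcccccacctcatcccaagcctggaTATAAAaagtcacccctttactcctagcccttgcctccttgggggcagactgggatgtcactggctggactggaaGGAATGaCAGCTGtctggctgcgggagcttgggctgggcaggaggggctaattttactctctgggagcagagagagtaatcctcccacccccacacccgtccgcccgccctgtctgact

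Jsrp1 held 3 E-boxes within 46 bases of its start, Trdn 1 after its start, and Jph2 none of the motifs. Cacna1s held 2 E-boxes, the muscle CAT motif just before the second of them, and a TATA motif, none overlapping another. Over the 10 windows, 6 held an E-box, 1 the muscle CAT motif and 1 the TATA motif, where 72.1%, 14.2% and 14.2% of 33465 rat promoter windows did. The windows are not independent: Cacna2d1 and Ryr3 gave more than 1 each, and those of Cacna2d1 overlap. By gene, 5 of 7 held an E-box, 1 the muscle CAT motif and 1 the TATA motif. The half-site of nuclear hormone receptors (AGGTCA, either strand) was in 0 of the 10 windows and in 16.2% of all. The MEF2 box was in 0 of 10, beside 0.565% of all, and the CArG box in 0 of 10, beside 1.64%. These are letter matches, not shown to be bound.

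Other proteins of the junction did not pass either. Of 29 listed partners 27 were tested by their brightest probe set, and 0 had an adjusted p under 0.05. Before adjustment, at a limma p under 0.05, 1 was higher and 0 were lower, where 6.34% and 5.83% of 10446 genes were. Their median log2 difference was 0.09, beside 0.01 over those genes. The 1 was Tmem38b, a potassium channel of the reticulum (TRIC-B), with 195, 329, 269 and 507 on the hyperthyroid arrays, against 258, 166, 199 and 171 on controls (0.65 ± 0.27, SE; adjusted p = 0.410). Hyperthyroid 5 held the top value, and without it the difference was 0.40 ± 0.23 (limma adjusted p = 0.426).

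Casq1, the calcium-storing calsequestrin of fast fibres, read 3891, 5773, 5407 and 6805 on the hyperthyroid arrays, against 6558, 6009, 7113 and 5674 on controls. Hyperthyroid 1 and 3 lay below every control, as for Trdn 1370198_at and Cacna2d1, and the difference was -0.24 ± 0.17 (SE; limma adjusted p = 0.6004), and -0.35 ± 0.15 without hyperthyroid 5 (adjusted p = 0.283). Stac3, the adaptor that couples voltage sensor and release channel, stood at -0.04 ± 0.19 (SE; limma adjusted p = 0.943). Fkbp1a, which stabilises the closed state of Ryr1, stood at 0.09 ± 0.12 by its brightest probe set (limma adjusted p = 0.780). Without hyperthyroid 5 these stood at 0.07 ± 0.17 and 0.11 ± 0.12. Another Fkbp1a probe set, 1369621_s_at, stood at -0.53 ± 0.29, and -0.81 ± 0.22 without hyperthyroid 5 (limma adjusted p = 0.498 and 0.133). Without hyperthyroid 5 the partners at an unadjusted p under 0.05 were 3 higher (Hrc, Srl and Speg) and 1 lower (Casq1), where 7.85% and 8.24% of genes were.

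Among the related channels and junctophilins, 8 of 16 listed genes were tested by their brightest probe set. At an unadjusted p under 0.05, 2 were higher (Itpr1 and Itpr2) and 1 was lower (Cacna2d3), where 6.34% and 5.83% of all genes were. Without hyperthyroid 5, 2 were higher and 2 lower, where 7.85% and 8.24% were. Itpr2, a receptor of inositol trisphosphate that also releases stored calcium, read 110.2, 101, 132 and 116 on the hyperthyroid arrays, against 54.4, 85.0, 69.1 and 44.8 on controls. Its groups did not overlap, as was the case in the higher direction for 4.33% of all probe sets. The log2 difference was 0.89 ± 0.27 (SE; limma adjusted p = 0.288), and 0.88 ± 0.31 without hyperthyroid 5 (adjusted p = 0.210). The other Itpr2 probe set, 1369675_at, overlapped over 8 arrays, with 80.3 to 118 against 41.0 to 108. It stood at 0.73 ± 0.32 (limma adjusted p = 0.416), and 0.86 ± 0.34 without overlap when hyperthyroid 5 was left out. The cardiac release channel Ryr2 and the neuronal junctophilin Jph3 lay under the filter and were not tested. Of 9 listed genes of store-operated calcium entry 7 were tested by their brightest probe set, with 0 higher and 0 lower at an unadjusted p under 0.05. The one with the smallest p was Saraf, a brake on that entry, at -0.35 ± 0.16 (SE; adjusted p = 0.450 in limma), with its lowest value, 776, on hyperthyroid 5 and 1148 to 1476 on the other 7 arrays. Without hyperthyroid 5 it stood at -0.19 ± 0.12 (limma adjusted p = 0.475). Stim1 was lower without overlap, 554 to 1081 against 1123 to 1284 (-0.39 ± 0.21; limma adjusted p = 0.487), as were 3.23% of all probe sets. Leaving out hyperthyroid 5 gave -0.15 ± 0.11 (adjusted p = 0.559). Of the dimmer probe sets, Stim1 1382121_at stood at -0.64 ± 0.24 (limma adjusted p = 0.357). Sypl2 stood at -0.38 ± 0.17 by 1379734_at, against 0.26 ± 0.18 by its brightest (limma adjusted p = 0.429 and 0.582).

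Of 13 listed genes of calcium pumping, calcium exchange and surface excitation 9 were tested by their brightest probe set. At an unadjusted p under 0.05, 0 were higher and 3 lower (Slc8a1, Pln and Sln), where 6.34% and 5.83% of all genes were. None passed the adjusted threshold. The median log2 difference of the 9 was -0.36, beside 0.01 over all genes. Without hyperthyroid 5, 0 were higher and 4 lower, where 7.85% and 8.24% of all genes were, and the median was -0.41, beside 0.02. Slc8a1, the sodium-calcium exchanger of the surface membrane, read 153, 291, 235 and 142 on the hyperthyroid arrays, against 294, 293, 355 and 338 on controls. Its groups did not overlap by a narrow margin, as was the case in the lower direction for 3.23% of all probe sets. The Slc8a1 difference was -0.70 ± 0.24 (SE; adjusted p = 0.331), and -0.54 ± 0.22 without hyperthyroid 5 (adjusted p = 0.264 in limma). The pump Atp2a1, which returns calcium to the reticulum in fast fibres, stood at -0.26 ± 0.13 (limma adjusted p = 0.482), and -0.25 ± 0.12 without hyperthyroid 5 (adjusted p = 0.372). The dimmer probe sets did not all run lower. Atp2a2 1370426_a_at was higher without overlap, 499 to 687 against 365 to 484 (0.48 ± 0.17; limma adjusted p = 0.332). Without hyperthyroid 5 it stood at 0.57 ± 0.16 (limma adjusted p = 0.152). Pln stood at -1.33 ± 0.45 by its brightest probe set, against -0.25 ± 0.32 by 1388876_at (limma adjusted p = 0.332 and 0.782). Without hyperthyroid 5 these were -0.76 ± 0.17 and 0.08 ± 0.22.

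The 3 genes whose log2 signal followed a member most closely over the 8 arrays, of 10436 genes ranked by Pearson r, were Hmga1, Eif3d and Asnsd1 for Ryr1 (0.96, 0.93 and 0.93), Mitd1, Cnot10 and Iars1 for Cacna1s (0.95, 0.92 and 0.90), and Ankrd9, Zfp652 and Taf12 for Jph2 (0.98, 0.97 and 0.96). These are the top values of a long ranking over 8 arrays and are given as a description. For Ryr1, all of them had their highest value on hyperthyroid 2: Hmga1 read 133 on it and 81.7 to 96.8 on the other 7 arrays.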

How the data were processed

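The deposited table holds 1 intensity per probe set and array on a linear scale. Per the submitters' processing notes it was made with GCOS, the array maker's software, with no version given; further filters are not given in the sources used here. Each array had the same mean after 2% of values were trimmed at each end (150.1), so the deposited intensities were already scaled, and their medians ran from 47.8 to 58.5. After 57 control probe sets were left out, values were set to at least 1 (1663 of 248336 were lower) and taken to log2. The upper 60% by mean log2 signal, 18625 probe sets above about 28.2, was tested. Dim signals carry larger relative error, and the number of arrays limits precision.

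The test was limma 3.58.1 under R 4.3.3, two-sided, by lmFit and trended eBayes, with Benjamini-Hochberg adjustment over all probe sets tested and a threshold of 0.05. Single within-array differences were compared by exact permutation tests with scipy 1.17.1. Brightest means highest mean signal among a gene's probe sets. Probe sets were named from the platform annotation. The fit was tested on simulated data. The members and lists were chosen with earlier results of these data known.

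The text names all member probe sets; from each list the gene with the smallest p, since none passed; Myh13, Myh4, Myh7, Casq1, Atp2a1, Stac3 and Fkbp1a; and 3 genes most like Ryr1, Cacna1s and Jph2. Hoxa10, Hrc, Srl, Speg, Itpr1, Cacna2d3, Stim1, Sypl2, Pln, Sln, Atp2a2, Ryr2 and Jph3 were named after their values were seen. Alternatives were quantile normalization, median centring, other filters, 32 added before log2, other eBayes settings, array weights, the Gapdh ratio as a covariate and leaving out each array.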

Additional observations from a re-analysis of the deposited data

Results flagged for a closer look

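On the signal scale, Ryr1 on hyperthyroid 2 lay far from the rest of its group: 2650.4, against 1383, 1359.7 and 1559.9 on hyperthyroid 1, 3 and 5. The gap to the nearest array was 0.845 of the group's range, above Dixon's 95% critical value for 4 samples, and on the log2 scale it was 0.794, under that value. It was the 1 such value in 28 groups of 4 examined over the 14 probe sets, and chance gives about 1 in 20.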

How the results depend on the processing

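No paired analysis was possible because the groups share no replicate number. Over 8 arrays, 0 triad probe sets passed under each alternative run, with smallest adjusted p-values of 0.134 (Gapdh ratio as covariate) to 0.504 (without control 11), and without hyperthyroid 5 likewise 0, with 0.0722 (without hyperthyroid 3 as well) the smallest. Over all probe sets the count of 0 on 8 arrays became 6 with array weights, 8 with the Gapdh ratio as a covariate, 0 to 29 on leaving out 1 array and 2151 at an unadjusted p under 0.05. The count of 29 without hyperthyroid 5 became 1 with the Gapdh ratio, 315 with median centring, 71 with no filter, 0 without a mean-variance trend, 78 with 32 added, 85 with the stricter filter, and 0 to 144 without 1 further array (144 without hyperthyroid 3). Median centring moved the median difference of all probe sets to -0.09, against 0.03 as deposited, and the split at an unadjusted p under 0.05 to 567 higher and 1623 lower, against 1164 and 987; the triad probe sets were then 1 higher and 0 lower. Of 220 alternatives run on the 13 tested triad probe sets, 206 kept their direction and 14 turned it, each on a value that did not pass. Cacng1 was at 0.35 with the Gapdh ratio, Trdn 1370739_x_at at 0.17 with array weights and 0.061 after quantile normalization, and Jph1 at -0.026 with array weights and -0.11 with median centring. Leaving out 1 array gave ranges of -0.030 to 0.29 for Ryr1, -1.39 to 0.070 for Ryr3, -0.17 to 0.047 for Cacna1s, -0.22 to 0.38 for Trdn 1370739_x_at and -0.13 to 0.13 for Jph1. Others moved by over 1.5 times without changing sign: -0.70 to -0.0019 for Cacng1, -0.24 to -0.013 for Cacna2d1 and -0.45 to -0.067 for Trdn 1370198_at, each nearest 0 without hyperthyroid 1. The mean over its probe sets was 0.23 for Trdn, against -0.30 on the brightest, and -0.33 for Cacnb1, against 0.45. The cause of these turns was not tested. The Ryr3 and Ryr1 contrast was -0.53 with 32 added before log2, against -1.04. No detection call is used here, so signal over background is known only through the filter level.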

Other observations

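Members of other cell type lists with the smallest p did not pass either. Kdr, an endothelial receptor of vascular endothelial growth factor, read 572, 659, 539.6 and 398 on the hyperthyroid arrays, against 357, 327, 361 and 378 on controls, without overlap (0.59 ± 0.17, SE; limma adjusted p = 0.284), and 0.73 ± 0.14 without hyperthyroid 5 (adjusted p = 0.0703). Gap43, a growth protein of axons, read 115, 159.9, 93.4 and 103 on the hyperthyroid arrays, against 183, 189, 173 and 188 on controls, also without overlap (-0.67 ± 0.21, SE; limma adjusted p = 0.306), and -0.61 ± 0.22 without hyperthyroid 5 (adjusted p = 0.228). Of all probe sets 4.33% were higher and 3.23% lower without overlap. Kdr and Gap43 were picked for the smallest p of their lists. Mobp, Lum, Tagln, Cidec, Ptprc, Hoxd8, Tnnc1, Tnni2 and Myh8 had overlapping groups over 8 arrays. In each list 0 genes passed, with and without hyperthyroid 5.

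Probe sets of some triad partners differed from each other; these were chosen after their values were seen. Casq2, the calsequestrin of slow fibres and heart, had a log2 difference of -0.15 ± 0.21 by its brightest probe set, against -0.83 ± 0.22 by 1387401_at (SE; limma adjusted p = 0.802 and 0.265). Without hyperthyroid 5 these were 0.048 ± 0.15 and -0.84 ± 0.23 (limma adjusted p = 0.911 and 0.139). Tmem38a, the reticulum potassium channel TRIC-A, had -0.18 ± 0.15 by its brightest, against -0.71 ± 0.22 by 1377448_at (limma adjusted p = 0.644 and 0.306), and -0.20 ± 0.15 and -0.87 ± 0.20 without hyperthyroid 5 (adjusted p = 0.551 and 0.0941). Asph, whose short form junctin sits beside triadin, read 0.21 ± 0.24 by the brightest of 4 probe sets, against -0.49 ± 0.15 by 1393345_at, without overlap between the groups on the second (limma adjusted p = 0.755 and 0.3004). Without hyperthyroid 5 the Asph values were 0.0100 ± 0.20 and -0.42 ± 0.15 (limma adjusted p = 0.985 and 0.222). Fkbp1a also differed: -0.53 ± 0.29 by 1369621_s_at, against 0.11 ± 0.17 by 1398828_at and 0.09 ± 0.12 by its brightest, 1398829_at. Without hyperthyroid 5 these were -0.81 ± 0.22, 0.0099 ± 0.16 and 0.11 ± 0.12 (limma adjusted p = 0.133, 0.983 and 0.676).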
